A study of Mus musculus with 40 samples.

Results

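The red blood cell genes measured here are the alpha-globin genes Hba-a1 and Hba-a2, the beta-globin genes Hbb-bs and Hbb-bt, the heme synthesis gene Alas2, the membrane gene Slc4a1 and the bisphosphoglycerate mutase gene Bpgm. They were chosen by gene symbol from the table of normalized counts of mouse gastrocnemius, a calf muscle of mixed fiber types. Of the 7 names 6 had a row among the 12573 genes of the table, and Slc4a1, the anion exchanger of the red cell membrane, was not analysed here. RNA came from 40 female C57BL6/J mice, 8 in each of 5 groups with 1 library per mouse. PBS mice were injected with saline alone and were 12 weeks of age. All other mice received Lewis lung carcinoma (LLC) cells, a transplantable mouse lung tumor, under the skin at 8 weeks of age. The 1wk mice were taken at 1 week (9 weeks old) and the 2wk mice at 2 weeks (10 weeks old). Tumors weighed at most 1.2 g in the low tumor (LT) mice and at least 2 g in the high tumor (HT) mice, both at 11 to 12 weeks of age. No tumor-free mice of 9 or 10 weeks were sequenced, and LT and HT mice were sorted by tumor mass after 3 to 4 weeks of growth.

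Hemoglobin, the oxygen carrier of red blood cells, is built from alpha and beta globin chains that each hold a heme group. Red cell precursors make globin and heme together. Alas2 is the erythroid form of the enzyme that opens heme synthesis, and the form used by other tissues is Alas1. Mature mouse red cells have no nucleus, and reticulocytes, the young cells that leave the marrow, still carry globin and Alas2 mRNA. Nucleated red cell precursors are the main site of globin transcription, and a muscle sample holds whatever blood remains in its vessels. Bpgm makes 2,3-bisphosphoglycerate, which lowers the oxygen affinity of hemoglobin, and it is also expressed outside red cells.

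The 5 genes that rose in HT mice are known targets of the erythroid factors GATA1, which binds GATA motifs, and KLF1, which binds CACCC motifs. Their promoters are shown because these genes moved together, beside that of Bpgm, which did not move with them. The sequences are those of RefSeq on build GRCm38.p6, from 250 bases before to 50 bases after each start, and run 5′ to 3′. Capitals mark GATAA and CACCC on either strand. The Hba-a2 promoter was the same as that of Hba-a1 over all 297 bases that the 2 windows share and is not shown. The windows were chr11:32283422-32283721 (plus strand) for Hba-a1, chr7:103827879-103828178 (minus strand) for Hbb-bs, chr7:103813874-103814173 (minus strand) for Hbb-bt, chrX:150547167-150547466 (plus strand) for Alas2 and chr6:34476106-34476405 (plus strand) for Bpgm.
Hba-a1: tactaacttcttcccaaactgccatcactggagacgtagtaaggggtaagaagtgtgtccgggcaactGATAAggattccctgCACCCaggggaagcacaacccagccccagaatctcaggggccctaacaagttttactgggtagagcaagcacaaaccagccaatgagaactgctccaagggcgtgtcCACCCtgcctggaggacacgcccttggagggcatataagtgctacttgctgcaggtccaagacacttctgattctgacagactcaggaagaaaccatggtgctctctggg
Hbb-bs: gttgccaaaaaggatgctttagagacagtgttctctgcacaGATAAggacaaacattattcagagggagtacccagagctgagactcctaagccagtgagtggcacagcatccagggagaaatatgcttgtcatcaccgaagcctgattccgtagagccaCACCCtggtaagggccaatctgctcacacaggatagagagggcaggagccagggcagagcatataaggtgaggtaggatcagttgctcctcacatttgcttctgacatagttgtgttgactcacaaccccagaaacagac
Hbb-bt: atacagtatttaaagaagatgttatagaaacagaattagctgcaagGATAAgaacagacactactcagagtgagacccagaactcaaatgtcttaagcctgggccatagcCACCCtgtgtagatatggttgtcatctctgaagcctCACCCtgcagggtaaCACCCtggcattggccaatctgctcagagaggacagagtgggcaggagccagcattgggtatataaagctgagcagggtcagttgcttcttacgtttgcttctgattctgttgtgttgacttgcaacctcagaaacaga
Alas2: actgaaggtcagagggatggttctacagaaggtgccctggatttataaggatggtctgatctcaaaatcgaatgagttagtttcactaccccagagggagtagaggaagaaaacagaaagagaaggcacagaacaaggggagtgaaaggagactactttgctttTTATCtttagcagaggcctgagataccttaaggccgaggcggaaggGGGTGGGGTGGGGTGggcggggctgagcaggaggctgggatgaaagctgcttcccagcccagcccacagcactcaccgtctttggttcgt
Bpgm: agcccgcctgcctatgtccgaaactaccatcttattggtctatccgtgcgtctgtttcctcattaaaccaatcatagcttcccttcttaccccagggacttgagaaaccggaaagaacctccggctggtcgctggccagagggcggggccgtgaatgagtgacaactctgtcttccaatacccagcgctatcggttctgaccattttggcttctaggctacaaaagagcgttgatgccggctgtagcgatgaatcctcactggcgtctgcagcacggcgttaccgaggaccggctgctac

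Each of the 5 erythroid promoters held GATAA at 1 position. CACCC occurred at 2 positions in the promoter of Hba-a1, 1 in that of Hbb-bs, 3 in that of Hbb-bt and 3 in that of Alas2, where they lie next to each other on the reverse strand. The Bpgm window held 0 of either. Among 32851 promoter windows of the same length 25.4% held GATAA, 57.5% held CACCC and 12.6% held both. The motifs are letters in a window, and no binding was measured.

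The globin rows could not all be separated by the counting. In the deposited coordinates, which match build GRCm39, the rows of Hba-a1 (chr11:32233672-32247304) and Hba-a2 (chr11:32233675-32247311) each ran over both alpha-globin copies of the GENCODE vM39 annotation. The Hba-a1 value was 1.11 to 1.36 times that of Hba-a2 in all 40 libraries, so the split between the 2 copies is uncertain and they are close to 1 measurement. Hbb-bs (chr7:103475730-103477136) shared its locus with a row named Hbb-b1 at a ratio of 0.539 to 0.552. Hbb-bt (chr7:103461731-103463131) was identical in every library to a row named Hbb-b2. Hbb-b1 and Hbb-b2 are therefore not counted again as members, and enter sums and ratios only where stated. The sum of the 4 globin names leaves them out, although Hbb-b1 held more counts than Hbb-bs, so it is a partial globin total. Alas2 lies at chrX:149330413-149353619 and Bpgm at chr6:34453291-34482072.

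Globin and Alas2 mRNA were about 5 to 7 times as high in the muscle of HT mice as in that of PBS mice, and Bpgm was lower. All 8 HT mice lay above all 8 PBS mice for Hba-a1, Hba-a2, Hbb-bs, Hbb-bt and Alas2. The share of all genes with such a separation was not counted, so this is a description only. Of the 6 measured genes 5 rose and 1 fell in HT against PBS (limma on log2(value + 1), called at an adjusted p under 0.05, where p-values were adjusted by Benjamini-Hochberg across the whole table). In the same comparison 32.9% of the 12573 genes were called, 16.5% higher and 16.5% lower. The median log2 fold change of the 6 members was 2.39 and that of all genes 0.00031. Whether more red cell RNA came from more such cells or from more RNA per cell cannot be told apart in whole muscle.

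Hba-a1 had 10001, 15396 and 33996 normalized counts as the lowest, median and highest value in HT mice, against 2149, 3026 and 8974 in PBS mice. Its mean was 18741 ± 8854 in HT mice and 3805 ± 2266 in PBS mice (SD, n = 8 each), a log2 fold change of 2.34 ± 0.318 (SE here and below, adjusted p = 1.37e-06, limma). The lowest HT mouse, C38, was above the highest PBS mouse, C4. Hba-a2 had 8178, 12462 and 27656 normalized counts as lowest, median and highest value in HT mice, against 1775, 2431 and 7209 in PBS mice. Its log2 fold change was 2.34 ± 0.312 (adjusted p = 9.2e-07). The alpha chains thus gave the same picture under both names, as their shared rows require.

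Hbb-bs, an adult beta-globin gene, had 7861, 11794 and 29025 normalized counts as lowest, median and highest value in HT mice, against 1600, 2060 and 6228 in PBS mice. The groups did not overlap, and the log2 fold change was 2.44 ± 0.311 (adjusted p = 4.44e-07, limma). Hbb-bt, the second adult beta-globin gene of this haplotype, had 2007, 3486 and 7969 normalized counts as lowest, median and highest value in HT mice, against 421, 469 and 1509 in PBS mice. Its log2 fold change of 2.69 ± 0.333 (adjusted p = 2.57e-07) was the highest of the 4 globin names, although its 95% interval of 2.01 to 3.36 holds the values of the other globins.

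Alas2 showed the largest log2 fold change of the members. Its normalized count was 474 at the lowest, 861 at the median and 1834 at the highest in HT mice, against 66.0, 109 and 254 in PBS mice. It averaged 944 ± 457 in HT mice and 129 ± 63.4 in PBS mice (SD, n = 8 each), a log2 fold change of 2.87 ± 0.326 (adjusted p = 4.51e-08, limma). The HT and PBS mice did not overlap. About 251 to 880 reads lay behind the Alas2 values of HT mice and 113 to 485 behind those of PBS mice, as estimated from the value of 1 read in each library.

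Bpgm went the other way and by much less. It had 782, 1557 and 2626 normalized counts as lowest, median and highest value in HT mice, against 1732, 2097 and 2461 in PBS mice. Of the 8 HT mice 5 were below every PBS mouse and 1, C46, was above every PBS mouse, so the groups overlapped. The log2 fold change was -0.44 ± 0.154 (adjusted p = 0.025, limma). HT mice C55 and C54 had the lowest values, 782 and 901, and without either mouse the call was lost (adjusted p = 0.0941 without C55 and 0.0869 without C54). It was also lost without C48, C54 and C55 together, which an earlier look at these data had set apart, where the log2 fold change was -0.09 (adjusted p = 0.64). That omission, also used for other genes below, was chosen after seeing the data. It takes out the lowest Bpgm values, so the lost call is no separate evidence.

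**Figure D1:**
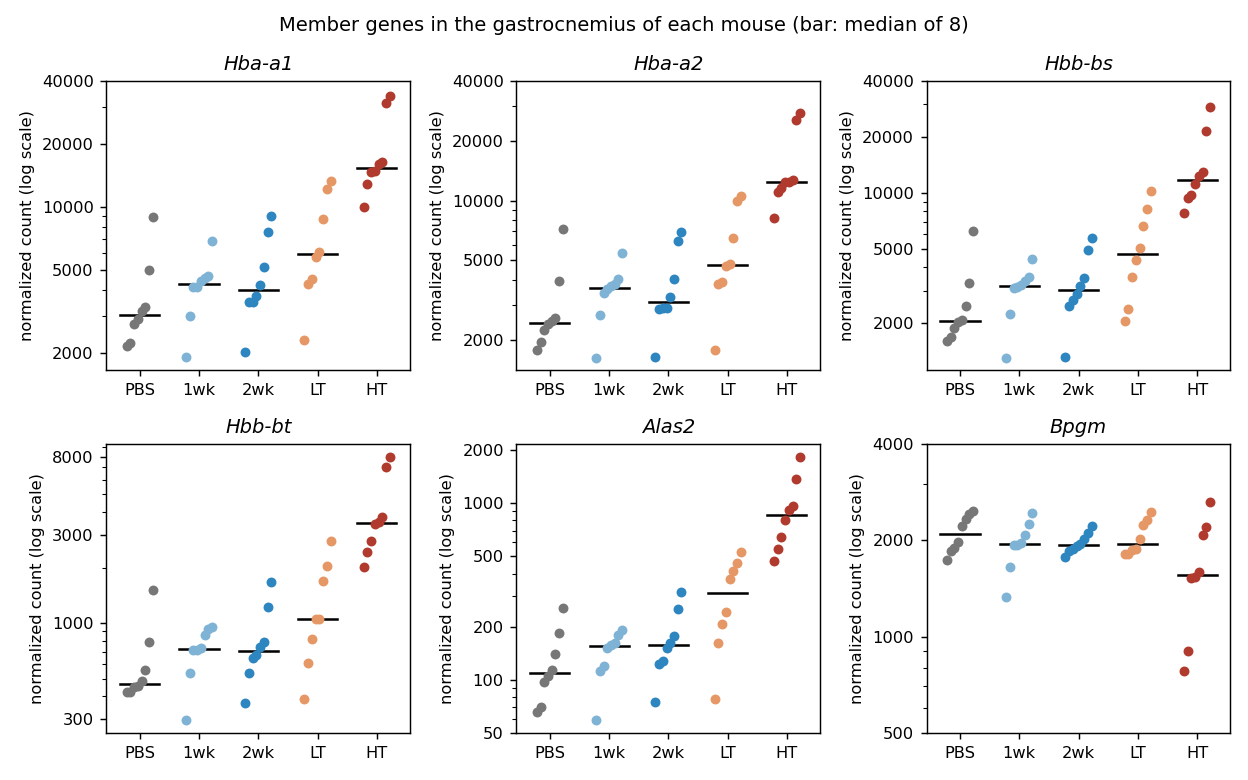
Normalized counts (log scale) of the 6 measured genes in each of 40 mice, 8 per group, with the group median as a bar. In the 5 globin and Alas2 panels all HT mice lie above all PBS, 1wk and 2wk mice, while Bpgm spreads in HT mice between 782 and 2626 with 2 mice under 1000.

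Across the 5 groups, which are not a series of times alone, Hbb-bs had a median of 2060 in PBS mice, 3167 in 1wk mice and 3031 in 2wk mice. Its median was 4723 in LT mice and 11794 in HT mice. The median of Alas2 was 109 in PBS mice, 155 in 1wk mice, 157 in 2wk mice, 309 in LT mice and 861 in HT mice. By group means, the order for all 4 globins and Alas2 was PBS, 1wk, 2wk, LT and HT. Only the step between LT and HT passed the test, and the other neighbors in this order did not differ beyond their spread. For 2wk against 1wk, called in 0.0159% of all genes, and LT against 2wk, called in 0%, none of the 6 genes passed by limma, with 0 and 1 of them at an unadjusted p under 0.05. For Bpgm the order of means was HT, 1wk, 2wk, LT and PBS, and no neighboring groups differed by the test.

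HT differed from LT in the 5 genes as well. Of the 6 genes 5 rose and 0 fell in HT against LT (limma), beside 20.4% of all genes called and 9.94% called higher. The log2 fold change was 1.47 ± 0.318 for Hba-a1, 1.48 ± 0.312 for Hba-a2, 1.49 ± 0.311 for Hbb-bs, 1.75 ± 0.333 for Hbb-bt and 1.70 ± 0.326 for Alas2, with adjusted p between 0.000478 and 0.0017. Libraries of HT and LT mice were of like depth, an estimated 4.16 to 7.76 M and 3.49 to 7.24 M reads. The groups overlapped here. Alas2 was 474 to 1834 in HT mice and 78.0 to 531 in LT mice, and 7 of 8 HT mice were above every LT mouse. LT mouse C44 had 13320 normalized counts of Hba-a1, above the 10001 and 12877 of HT mice C38 and C54. Bpgm missed the threshold in HT against LT at a log2 fold change of -0.40 ± 0.154 (adjusted p = 0.0585), and the call was gained without HT mouse C46, C37 or C60 or 1wk mouse C17 (adjusted p = 0.0106, 0.0277, 0.025 and 0.0479).

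Against the younger tumor-bearing mice the HT levels were also higher. The log2 fold change of Alas2 was 2.43 ± 0.326 in HT against 2wk and 2.67 ± 0.326 in HT against 1wk. Of the 6 genes 5 rose and 0 fell in both, where 28.3% of all genes were called in HT against 2wk and 29.2% in HT against 1wk. No HT mouse overlapped with a 2wk or 1wk mouse in any of the 5 genes, though the share of all genes so separated was not counted.

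LT mice lay between. Hbb-bs had 2059, 4723 and 10228 normalized counts as lowest, median and highest value in LT mice, against 1600, 2060 and 6228 in PBS mice, and 7 of 8 LT mice were above the PBS median. Alas2 had 78.0, 309 and 531 in LT mice, against 66.0, 109 and 254 in PBS mice, and 4 of 8 LT mice were above every PBS mouse. The log2 fold changes of LT against PBS were 0.87 for Hba-a1, 0.86 for Hba-a2, 0.95 for Hbb-bs, 0.93 for Hbb-bt and 1.17 for Alas2. None of the 6 genes passed the limma test (adjusted p of 0.0892 for Alas2 and 0.17 to 0.23 for the globins), beside 0.636% of all genes called, though 5 of 6 had an unadjusted p under 0.05. The 95% interval for Alas2 was 0.51 to 1.83 on the log2 scale.

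The LT result turned on single mice. Without PBS mouse C4, which had the highest globin of its group, Hbb-bs (adjusted p = 0.0462) and Alas2 (0.0318) were called in LT against PBS. Without LT mouse C57, the lowest of its group, Alas2 was called (adjusted p = 0.0137). With a weight for each library Hbb-bs and Alas2 passed (adjusted p = 0.0389 and 0.0225). Without the highest and lowest mouse of every group by summed globin, a choice made after seeing the data, 5 of 6 genes passed. That choice trims the values under test and so narrows their spread, and no conclusion is drawn from it.

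In 1wk and 2wk mice none of the 6 genes was called by limma, beside 0.525% of all genes in 1wk against PBS and 0.0795% in 2wk against PBS, and 0 of 6 had an unadjusted p under 0.05 in either. Hba-a1 had 1909, 4292 and 6835 normalized counts as lowest, median and highest value in 1wk mice and 2012, 3993 and 9045 in 2wk mice, against 2149, 3026 and 8974 in PBS mice. All 3 groups overlapped. The log2 fold change of Alas2 was 0.20 in 1wk against PBS (95% interval -0.46 to 0.86) and 0.44 in 2wk against PBS (-0.22 to 1.10), so a rise of up to 0.86 and 1.10 on the log2 scale was within the error. These mice were also 2 to 3 weeks younger than the PBS mice, and age and tumor cannot be told apart here.

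**Figure D2:**
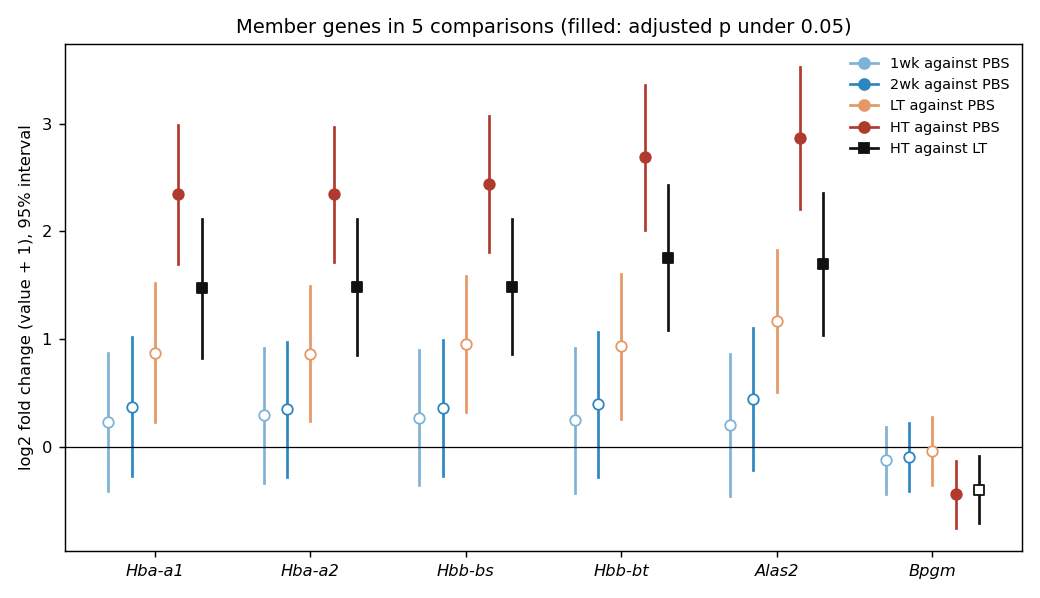
Log2 fold changes on the log2(value + 1) scale with 95% limma intervals for the 6 genes in 5 comparisons, filled where the adjusted p is under 0.05. The 4 globins and Alas2 reach 2.34 to 2.87 in HT against PBS and 1.47 to 1.75 in HT against LT, and Bpgm lies at -0.44 and -0.40.

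The 6 globin rows together made up 0.399% to 1.35% of a library in HT mice, with a median of 0.569%, against 0.0713% to 0.339% and a median of 0.0936% in PBS mice. This share counts the Hbb-b1 and Hbb-b2 rows beside those of Hbb-bs and Hbb-bt, so that the beta-globin loci enter it under both names. HT mice C46 (1.35%) and C48 (1.19%) stood above the other 6, which lay between 0.399% and 0.605%. Without C46 and C48 all 5 rises in HT against PBS were still called. The share was 0.0706% to 0.238% in 1wk mice, 0.0633% to 0.268% in 2wk mice and 0.0852% to 0.468% in LT mice.

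Some ratios between members had a higher median in HT mice than in PBS mice. Per 1000 normalized counts of the 4 globin names, Alas2 had 14.01, 17.9 and 22.4 as lowest, median and highest value in HT mice, against 10.6, 13.2 and 15.8 in PBS mice, and 7 of 8 HT mice were above every PBS mouse. The same ratio was 10.2, 12.9 and 14.5 in 1wk mice, 12.6, 13.2 and 16.3 in 2wk mice and 12.0, 14.6 and 22.6 in LT mice. The ratio of Hbb-bt to Hbb-bs was 0.2497, 0.285 and 0.326 as lowest, median and highest value in HT mice, against 0.219, 0.241 and 0.265 in PBS mice, and 6 of 8 HT mice were above every PBS mouse. The ratio of alpha to beta names was also formed, with the Hbb-b1 and Hbb-b2 rows counted among the beta names. It was 0.626 to 0.828 in HT mice and 0.691 to 0.897 in PBS mice, and these overlapped. The ratios were formed after the values had been seen and are given without a test.

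**Figure D3:**
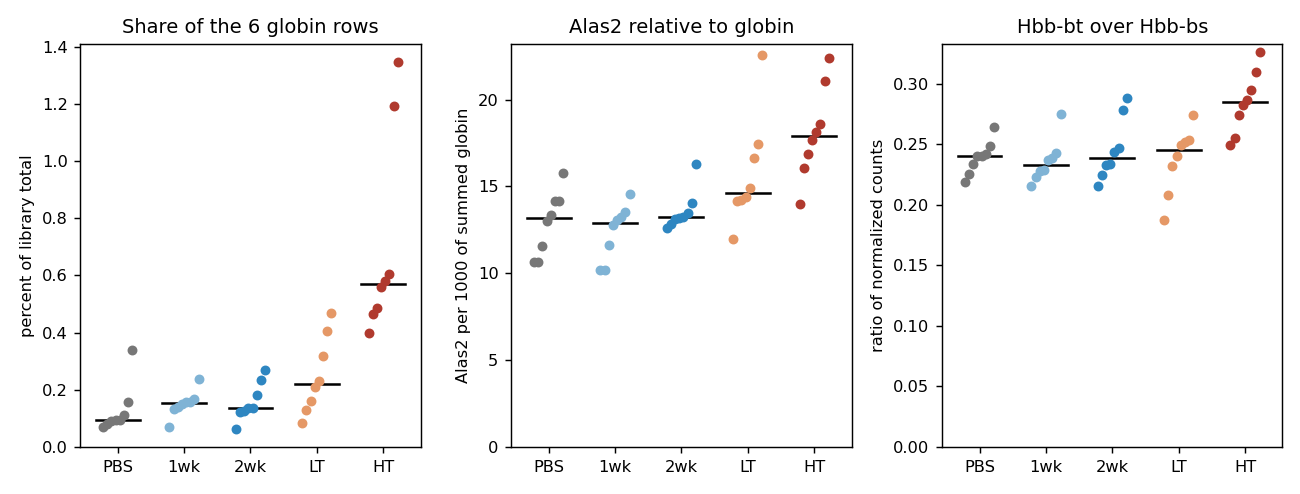
Share of the library total held by the 6 globin rows (percent), Alas2 per 1000 normalized counts of the 4 globin names, and the ratio of Hbb-bt to Hbb-bs, in each of 8 mice per group with the median as a bar. HT mice are highest in all 3 by their medians of 0.569%, 17.9 and 0.285.

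Mouse by mouse, Alas2 followed the globins within every group. Over the 8 HT mice the correlation of log2 Alas2 with log2 Hbb-bs was r = 0.965 (rho = 0.952, exact permutation p = 0.000149 and 0.00114, two-sided, adjusted 0.000744 and 0.0057 over 15 relations). It remained at r = 0.914 without the 2 mice farthest from the median. Over the 8 PBS mice r was 0.940 (rho = 0.929, exact permutation p = 0.000223 and 0.00223, adjusted 0.000837 and 0.0067) and 0.924 without the 2 farthest mice. In 1wk, 2wk and LT mice r was 0.947, 0.988 and 0.953, and each passed after adjustment, but in 1wk mice it fell to 0.566 without the 2 farthest mice and so rests on them. None of the 5 relations of Bpgm to Hbb-bs passed after adjustment (0.0996 or more for r and 0.06875 or more for rho). Its r was 0.405 in HT mice (rho = 0.381, exact permutation p = 0.322 and 0.36) and -0.224 in PBS mice (rho = -0.0952, exact permutation p = 0.638 and 0.84). The strongest was negative, in 2wk mice, at r = -0.668 (rho = -0.738, exact permutation p = 0.0664 and 0.0458).

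**Figure D4:**
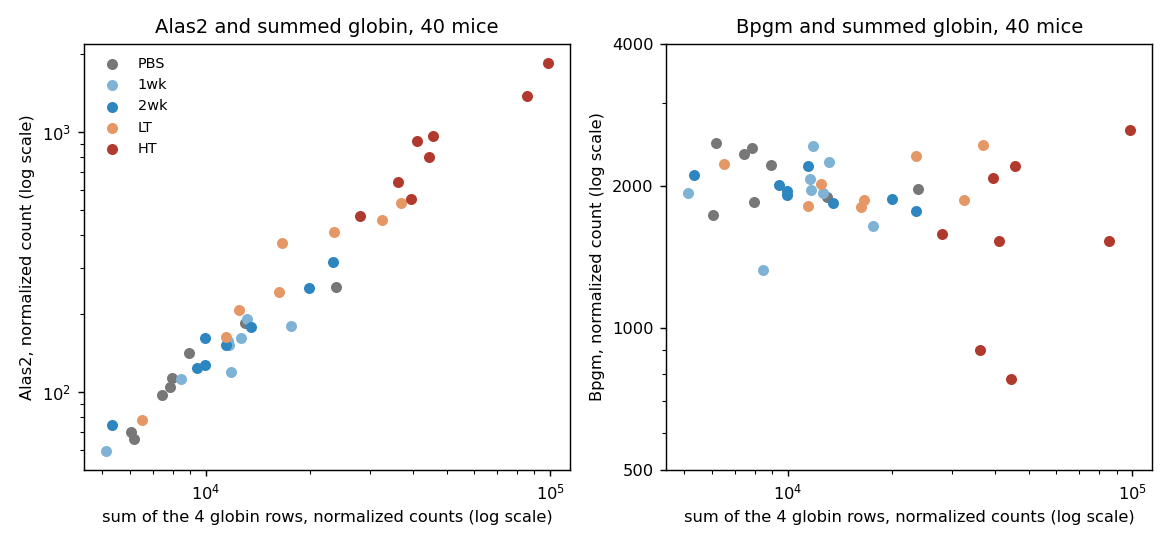
Alas2 (left) and Bpgm (right) against the sum of the 4 globin names in 40 mice, normalized counts on log scales, colored by group. Alas2 lies along 1 band through all groups, and Bpgm shows no such band, with HT mice C55 and C54 lowest at 782 and 901.

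Across all 40 libraries the genes outside the globins whose log2 values were most like the summed globin level by Pearson correlation included Alas2 (r = 0.982), Isg20 (0.893), Ube2l6 (0.859), Mkrn1 (0.856), S100a9 (0.801), C4b (0.777), S100a8 (0.771), Clca3a1 (0.769) and Osmr (0.755). The libraries share the step between groups, so values were also centred on their group mean. Then Alas2 (0.955), Ube2l6 (0.723), Isg20 (0.685) and Mkrn1 (0.653) stayed near the top, and S100a9 and S100a8 dropped to 0.341 and 0.191. Bpgm was at r = -0.282 across libraries and 0.107 after centring. These are descriptions over 40 libraries that carry no test.

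Isg20, an exonuclease named for its induction by interferon, averaged 110 ± 40.1 in HT mice and 30.01 ± 10.9 in PBS mice (SD, n = 8 each; log2 fold change 1.83 ± 0.228, adjusted p = 2.57e-07). Mkrn1, a ubiquitin ligase, averaged 331 ± 95.1 in HT mice and 167 ± 13.8 in PBS mice (0.94 ± 0.148, adjusted p = 1.44e-05). Ube2l6, a conjugating enzyme for the ubiquitin-like protein ISG15, averaged 210 ± 85.0 in HT mice and 89.1 ± 22.5 in PBS mice (1.17 ± 0.21, adjusted p = 8.2e-05). These genes were named here because they followed the summed globin level, which was higher in every HT mouse than in every PBS mouse. Their rise in HT mice is thus partly built into that choice, and these p-values are no separate support.

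Heme synthesis as a whole did not rise with Alas2. Of its 9 listed and measured enzymes only Alas2 rose in HT against PBS and 4 fell, 55.6% called beside 32.9% of all genes. The list median was a log2 fold change of -0.23, beside 0.00031 for all genes. Alas1, which opens the pathway in tissues outside the red cell line, fell by 0.57 on the log2 scale (adjusted p = 0.00586, limma), with 714 ± 195 normalized counts in HT mice and 1043 ± 214 in PBS mice (SD, n = 8 each). Alad fell by 0.35 (adjusted p = 0.0164) and Ppox by 0.33 (0.00156). Fech, which inserts iron into the ring, did not pass. Alad lost its call without C55 (adjusted p = 0.0611), and without C48, C54 and C55 together Alas1 (0.179) and Alad (0.222) did. In LT, 2wk and 1wk mice no listed gene of heme synthesis was called by limma.

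Among 10 of 11 listed genes of heme and mitochondrial iron transport 1 rose and 1 fell, with a list median of -0.01. The share called was smaller than the 32.9% of all genes called in HT against PBS. Slc48a1, a transporter that moves heme out of the lysosome, rose by 0.40 on the log2 scale (adjusted p = 0.00578), and Abcb10, a mitochondrial transporter that works with mitoferrin, fell by 0.28 (0.0171). Both calls were lost without C48, C54 and C55 (adjusted p = 0.431 and 0.289), and that of Abcb10 also without C54 (0.0614) or C55 (0.0582) alone. The mitoferrin of red cell precursors, Slc25a37, had 389 ± 124 in HT mice and 411 ± 40.4 in PBS mice (SD, n = 8 each) and did not pass.

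Of 17 of 20 listed genes of heme breakdown and iron handling 6 rose and 2 fell in HT mice, with a list median of 0.11. The share called was 47.1%, beside 32.9% of all genes. Hp, haptoglobin, which binds free hemoglobin, averaged 354 ± 206 in HT mice and 71.1 ± 39.7 in PBS mice (SD, n = 8 each; log2 fold change 2.28 ± 0.489, adjusted p = 0.000587). Hmox1, the inducible enzyme that breaks down heme, averaged 276 ± 209 in HT mice and 73.5 ± 17.5 in PBS mice (1.60 ± 0.379, adjusted p = 0.00149), with 79.2 in C46, the HT mouse of the highest globin, and 638 in C55. The rise of Hmox1 lost its call without C48, C54 and C55 (adjusted p = 0.0654). Tfrc, the transferrin receptor that is abundant on red cell precursors, fell by 1.05 on the log2 scale (adjusted p = 0.0145) with 887 ± 541 in HT mice and 1465 ± 500 in PBS mice, a call lost without C54 (0.0565) or C55 (0.0561). Steap3, the ferrireductase of the transferrin cycle, fell by 0.79 (adjusted p = 0.000848).

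The measured genes of the red cell membrane and skeleton did not rise as a group in whole muscle. Some were abundant in PBS mice, with means of 4797 for Tmod1 and 3991 for Sptb, beside 129 for Alas2. A red cell part of the size of Alas2 could not be told apart in such genes. Of 17 of 27 listed genes 2 rose and 3 fell, with a list median of 0.03. The 29.4% called were below the 32.9% of all genes. Ank1, the ankyrin that ties the anion exchanger to spectrin and that muscle also uses in its sarcoplasmic reticulum, fell by 1.15 on the log2 scale (adjusted p = 0.00237), with 5252 ± 2977 in HT mice and 9210 ± 1800 in PBS mice. Tmod3, a cap of actin filaments, rose by 0.54 (adjusted p = 0.000141) and Mpp1 by 0.29 (0.0204), while Tmod1 fell by 0.33 (0.0414) and Add3 by 0.36 (0.0438). The call of Tmod1 was lost without C48, C54 or C55 of HT or C2, C5, C6, C8, C10 or C11 of PBS (adjusted p = 0.0518 to 0.158). That of Add3 was lost without C54 (adjusted p = 0.155) or C55 (0.132), C62 of HT (0.0652), or C2, C4, C6, C8 or C9 of PBS (0.0531 to 0.089).

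Of the measured genes of reticulocytes and late red cell maturation 53.8% were called, beside 32.9% of all genes. Of these 13 of 18 listed genes 6 rose and 1 fell, with a list median of 0.23. Beside Isg20 and Mkrn1 these included Tent5c (log2 fold change 1.43), a poly(A) polymerase, Bnip3l (0.65), the receptor that clears mitochondria from reticulocytes, and Ubb (0.60), a polyubiquitin gene. Tent5c averaged 24.1 ± 9.04 in HT mice and 8.27 ± 3.95 in PBS mice (SD, n = 8 each; adjusted p = 9.62e-05). Bnip3l and Ubb are broadly expressed, and their highest HT values, 3656 and 49007, were in C55 and not in C46 or C48. Ubb lost its call without C48, C54 and C55 (adjusted p = 0.154). Prdx2, a peroxidase abundant in red cells, fell by 0.21 (adjusted p = 0.0291), a call lost without C54 or C55 of HT or C5, C9 or C10 of PBS (0.0582 to 0.102). Of 7 of 13 listed erythroid transcription factors and receptors 2 rose: Kit, a receptor of early precursors, by 0.86 (adjusted p = 0.000516), and Tal1 by 0.78 (0.00119), both of which are also found in other cells of muscle. These 2 of 7 are 28.6%, below the 32.9% of all genes called.

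Of 5 listed enzymes that make or use bisphosphoglycerate 0 rose and 3 fell, Bpgm among them, with a list median of -0.35. The share called was larger than the 32.9% of all genes called in HT against PBS, of which 16.5% were called lower, but the list holds only 5 genes. Pgam2, the muscle phosphoglycerate mutase, fell by 1.20 on the log2 scale (adjusted p = 0.000329), with 11931 ± 6032 in HT mice and 23020 ± 3031 in PBS mice (SD, n = 8 each). Its lowest values, 2312 and 4715, were in HT mice C55 and C54, the same mice as for Bpgm. Pgk1, phosphoglycerate kinase, fell by 0.35 (adjusted p = 0.00343), a call lost without C48, C54 and C55 (0.117). Mb, myoglobin, the oxygen-binding globin of muscle fibers, fell by 0.88 (adjusted p = 0.0273), a call lost without any of C48, C54 or C55 of HT or C9 or C10 of PBS (0.0603 to 0.0793).

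**Figure D5:**
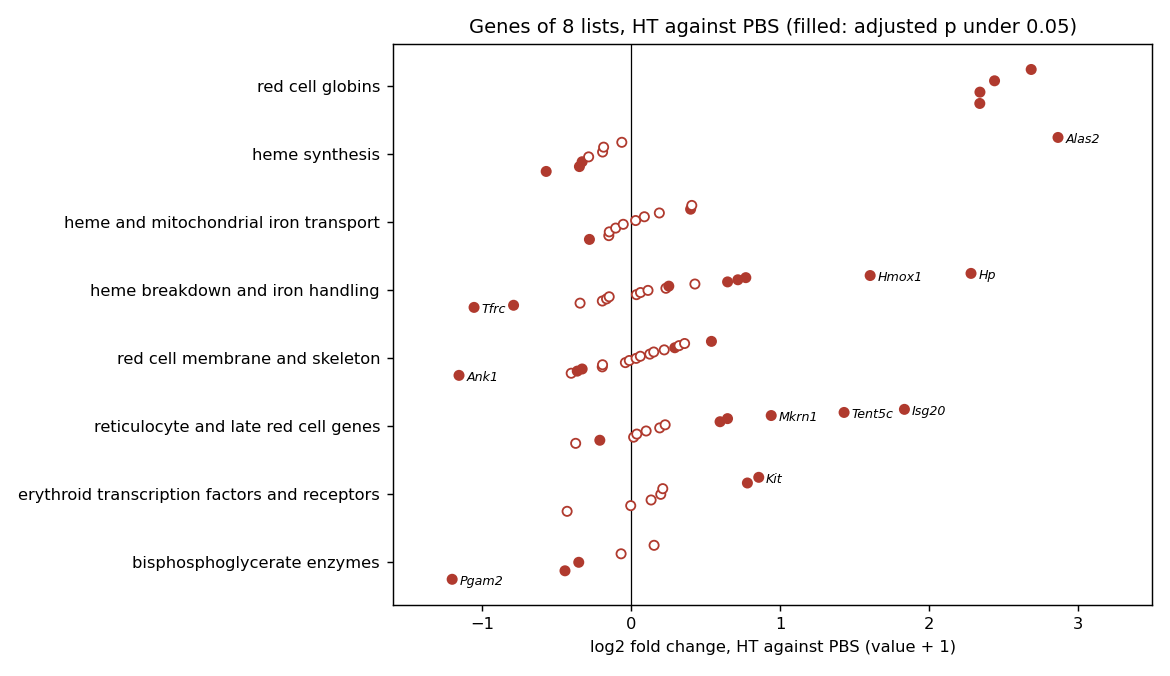
Log2 fold changes in HT against PBS on the log2(value + 1) scale for measured genes of 8 lists, 1 point per gene, filled where the adjusted p is under 0.05, without the repeated rows Hbb-b1 and Hbb-b2 and without genes not reported here. The globins and Alas2 at 2.87 stand to the right, while Ank1 at -1.15 and Pgam2 at -1.20 stand to the left.

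Markers of other cells were read in the same comparison. Of 22 listed neutrophil markers 7 were measured and all 7 rose in HT against PBS. Their summed level was 804 to 2792 normalized counts in HT mice, against 52.3 to 116 in PBS mice, and was 99.5 to 639 in LT mice. Only genes that reached 30 reads were kept, and S100a8 averaged 361 normalized counts in HT mice and 4.035 in PBS mice. Markers this low in PBS mice could pass the filter through the groups where they were high. The count of 7 of 7 is therefore partly set by the filter. Of 14 endothelial markers 9 rose, 64.3% beside the 32.9% of all genes called. The summed level of the 14 was 6147 to 7878 in HT mice and 4386 to 7477 in PBS mice. Of 15 platelet markers 4 were measured and 1, Selp, which endothelium also makes, rose, while Pf4 had 105 ± 35.1 in HT mice and 71.7 ± 27.5 in PBS mice and did not pass (adjusted p = 0.16). Of 12 skeletal muscle markers 4 fell (Myl1, Mylpf, Pvalb and Tnnc2), all 12 were measured in every library, and their summed level was 1691600 to 2678000 normalized counts in HT mice and 2093400 to 3244000 in PBS mice. The 4 of 12 muscle markers called are 33.3%, close to the 32.9% of all genes called in this comparison, and the 1 of 4 platelet markers is a smaller share. The part of these cells in the globin rise was not tested.

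Depth ran along the groups. An estimated 15.7 to 28.7 M reads lay behind PBS, 1wk and 2wk libraries and 3.49 to 7.76 M behind LT and HT libraries, so that 1 read was worth 0.422 to 0.734 and 1.58 to 3.37 normalized counts. With all libraries thinned to the smallest the 5 rises in HT against PBS and in HT against LT were still called. The libraries were sequenced in pools, and the methods do not assign each library to its pool, so the part of the pools in these results was not tested.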

How the data were processed

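Polyadenylated RNA of the gastrocnemius was sequenced by the authors with a stranded kit and short single reads, 1 library per mouse. Reads were aligned by the authors with STAR 2.7.8a, per the labels, against RefSeq mm39 (the labels list mm10 and mm39), counted in Partek and kept where genes reached 30 reads. The deposited signal table, named as raw counts, holds estimated counts that the authors scaled by the median ratios of DESeq2, called normalized counts here: 99.6% of 502920 values were not whole and 0 were exactly 0, so no count model was used. Globin rows that overlap split reads by estimation. Depth was estimated from the value of 1 read, with 75.9% to 89.2% of low values within 0.1 read of a whole number.

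The main test was limma-trend (limma 3.58.1, R 4.3.3) on log2(value + 1), all 5 groups in 1 fit without covariates or a filter on low values. Calls were made at 0.05 after Benjamini-Hochberg adjustment across the 12573 genes. Scripts were tested on simulated data. Alternatives were pseudocounts of 0.5 and 10, a filter at a mean of 20, quantile normalization, library totals without globins, the 2 groups alone, library weights, thinning and leaving out each mouse. Correlations within groups used exact permutation over all 40320 pairings. Per list, up to 4 genes of the largest change in HT against PBS were named, and members in full. Tmod1, Mpp1, Bnip3l, Ubb, Prdx2 and Slc25a37 were named after their values had been seen. Some genes of the lists are counted but not reported here by name. The members, lists and tests were chosen with earlier results of these data known. Libraries were pooled for sequencing by the authors, and the methods do not assign each library to its pool. Python 3.11.15 served for the rest.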

Additional observations from a re-analysis of the deposited data

Results flagged for a closer look

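PBS mouse C4 stood far above the other 7 PBS mice in all 4 globin names. It had 8974 normalized counts of Hba-a1, 7209 of Hba-a2, 6228 of Hbb-bs and 1509 of Hbb-bt, and the gap to the next mouse was 58.6%, 60.2%, 63.6% and 66.0% of the range of the group. The globin names share reads or loci, so these are close to 1 observation. Of 30 groups of 8 mice looked at, 4 were set apart in this way, and chance sets apart about 1 in 20. Alas2 of C4 was the highest of its group at 254 without being set apart. Leaving C4 out raised the log2 fold change of Alas2 in HT against PBS to 3.03, and it remained called.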

How the results depend on the processing

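In HT against PBS and in HT against LT the log2 fold changes of the 4 globins and Alas2 kept their direction and their call under all 52 alternatives each, among them every omission of 1 mouse. Alas2 ranged from 2.57 to 3.03 in HT against PBS. The number of members called in LT against PBS was 2 with library weights and 0 to 2 when 1 mouse was left out. It was 5 without the highest and lowest mouse of each group by summed globin, which trims the tested values. The cause of these differences was not tested. Bpgm in HT against PBS lost its call with library totals without globins (adjusted p = 0.0527), with the 2 groups alone (0.125), with library weights (0.194) and where named above. With the 2 groups alone Alad, Slc48a1, Abcb10, Tfrc, Ank1, Add3, Tmod1, Ubb, Prdx2 and Mb also lost theirs (adjusted p = 0.0554 to 0.158), as did Alad, Slc48a1, Tfrc, Add3, Tmod1, Ubb, Prdx2 and Mb with library weights (0.0594 to 0.298). Alad, Abcb10, Add3, Tmod1 and Prdx2 lost theirs after thinning (0.052 to 0.125) and with library totals without globins (0.0768 to 0.194), and Add3 (0.0557) and Tnnc2 (0.291) with quantile normalization. Without C48, C54 and C55 so did Alad, Abcb10, Tfrc, Add3, Tmod1, Prdx2, Mb, Pvalb and Tnnc2 (0.0945 to 0.786), and Mpp1 without the highest and lowest mice (0.102).

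Counts over all genes moved more. In HT against PBS 4140 genes were called, against 2447 with the 2 groups alone and 2028 without C48, C54 and C55. In HT against LT the 2564 calls became 524 with the 2 groups alone, 360 with library weights, 1582 after thinning, 400 without the 3 mice and 1486 to 3158 when 1 mouse was left out, lowest without C54 (1486) and C55 (1541) of HT. In LT against PBS the 80 calls became 288 with weights, 44 after thinning, 196 without the 3 mice and 44 to 144 when 1 mouse was left out, with over 1.5 times fewer without C5, C8 or C9 of PBS or C39 or C56 of LT and more without C4 of PBS. In 1wk against PBS the 66 calls became 729 with weights, 134 without the 3 mice, 43 without C9 and 103 without C4 of PBS, and in 2wk against PBS the 10 calls became 242 with weights, 6 with totals without globins, 4 without the highest and lowest mice and 0 to 19 when 1 mouse was left out, a change of over 1.5 times without any of C4, C5, C6, C8, C9, C10 or C11 of PBS or C28, C29, C30, C32 or C34 of 2wk. Scaling shifted the median of all genes by at most 0.0958 (log2). Of the 10 genes most like the globins 5 were the same after centring on the group mean and 6 by Spearman correlation. No paired analysis was possible because the labels number mice, not replicates, and no mouse occurs in more than 1 group. LT and HT libraries hold fewest reads, so that genes near 1 read, 1.58 to 3.37 normalized counts there, are the least precise.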

Other observations

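HT mice C54 and C55 had 36198 and 44376 normalized counts of summed globin, within the 28047 to 98646 of their group, and the lowest values of Bpgm, Pgam2, Ank1 and Tfrc among the 8 HT mice. HT mouse C46 had the highest globin and Alas2 and also the highest Bpgm (2626) and Ank1 (9327) of the group.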
